A study of Chrysanthemum x morifolium with 40 samples.

Results

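The genes evm_TU_scaffold_5211_68 and evm_TU_scaffold_1621_176 were followed in chrysanthemum roots through waterlogging and reoxygenation. They were 2 of the 178540 genes in the expression table and 2 of the 89517 genes that were tested, which had at least 1 FPKM (fragments counted on a gene, scaled by gene length and library size) in at least 4 libraries. They were chosen by measured values. Among the genes called higher at 12 h than at 0 h in the EWT cultivar, with no overlap between the 4 libraries of each time, these had the largest rises on the log2(FPKM + 0.1) scale, 13.25 for evm_TU_scaffold_5211_68 and 13.17 for evm_TU_scaffold_1621_176. The gene just outside the choice had a rise of 13.16. The EWT libraries at 0 h and 12 h therefore fixed the choice, and every change of these 2 genes that uses them is given as a description with no test.

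The study compared EWT, a cultivar named for enhanced waterlogging tolerance, with CK, the conventional cultivar 'zaoxiaoyangju'. Seedlings of both cultivars, 8 weeks old, were submerged to above their upper leaves, and their roots were taken before flooding (0 h) and after 3, 12 or 24 h under water. A last group, 24_3 h, was given 3 h of air after 24 h under water. No group stayed under water beyond 24 h, so the 3 h of air and the added time cannot be told apart. Each of the 10 groups had 4 libraries, called biological replicates in the study's methods, and unflooded plants were sampled only at 0 h, so waterlogging and time of day cannot be told apart. The growth conditions differ between the labels and the methods, and in bulk roots fewer cells of a type and less RNA per cell cannot be told apart.

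Submerged roots run short of oxygen, and plants then turn on a set of genes for fermentation, sugar use and oxygen sensing. Rhodanese domains are sulfur transfer domains, which carry a sulfur atom on an active-site cysteine and hand it to an acceptor. STR17 is an Arabidopsis protein with a rhodanese domain, and it gives evm_TU_scaffold_1621_176 its protein match. For evm_TU_scaffold_5211_68 the annotation holds neither a protein match nor a domain, so that no role can be given to it.

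In the coordinates of the deposited table, evm_TU_scaffold_5211_68 lay on the plus strand of chromosome 14 from 14111265 to 14111675, and its span of 411 bases equalled its listed length, so the gene model holds no intron. The STR17-matched gene evm_TU_scaffold_1621_176 lay on the minus strand of chromosome 7 from 148380282 to 148381366, a span of 1085 bases for a listed length of 483 bases. No other gene of the table overlapped either of them.

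Depth ran from 3517588 to 9929777 fragments counted on genes per library. The root label was checked with summed marker genes. The 30 genes matched to Casparian strip membrane proteins, which build the barrier of the root endodermis, summed to 0.587 to 69.2 FPKM after 0 h, against 48.2 to 89.3 FPKM at 0 h. The 169 genes matched to chlorophyll a-b binding proteins, which mark green tissue, summed to 31.6 to 165.5 FPKM after 0 h, against 36.5 to 87.4 FPKM at 0 h, and the 24 matched to the ribulose bisphosphate carboxylase small chain to 8.76 to 182.6 FPKM, against 5.01 to 10.99 FPKM at 0 h. The part of these shifts in the results below was not tested.

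Both genes were silent at this depth in roots that had not been flooded and among the most abundant transcripts a few hours later. At 0 h no fragment of either gene was counted in any of the 4 EWT or 4 CK libraries. In the 32 later libraries evm_TU_scaffold_5211_68 was covered by 481 to 2354 fragments and evm_TU_scaffold_1621_176 by 997 to 5424. Ranked by FPKM within a library, evm_TU_scaffold_5211_68 stood between rank 71 and rank 353 in these libraries and evm_TU_scaffold_1621_176 between rank 15 and rank 389.

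The unmatched gene evm_TU_scaffold_5211_68 had 361, 413, 394 and 480.3 FPKM in the EWT libraries at 3 h, against 371, 401, 425 and 231 FPKM in CK. At 12 h it had 1229.6, 761, 967 and 1008 FPKM in EWT, against 1045, 1157, 1118 and 755 FPKM in CK. The cultivars overlapped at both times, and every library at 12 h lay above every library at 3 h. At 24 h the levels were 751, 687, 895 and 646 FPKM in EWT, against 1044, 924, 1104 and 717 FPKM in CK. After reoxygenation they were 186, 158, 400.4 and 278 FPKM in EWT, against 366, 326, 256 and 232 FPKM in CK. The reoxygenated libraries lay below every library at 24 h, and the fourth CK library was the lowest of its group at each of the 4 later times.

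The STR17-matched gene evm_TU_scaffold_1621_176 had 195, 297, 456 and 245 FPKM in the EWT libraries at 3 h, against 581, 635, 453 and 357 FPKM in CK. At 12 h it had 831, 959, 1025 and 894 FPKM in EWT, against 1023, 1214, 1283 and 1005 FPKM in CK. At 3 h only the highest EWT library reached into the CK range, and at 12 h only the highest EWT library passed the lowest CK ones. At 24 h the levels were 1876, 1809, 1501 and 1344 FPKM in EWT, against 1471, 1616, 1171 and 930.0 FPKM in CK. After reoxygenation they were 542, 472, 902 and 1237 FPKM in EWT, against 856, 782, 443 and 296 FPKM in CK. Both reoxygenated groups were wide, with EWT libraries 3 and 4 above EWT libraries 1 and 2, and CK libraries 1 and 2 above CK libraries 3 and 4. The fourth CK library was again the lowest of its group at each of the 4 later times.

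**Figure D1:**
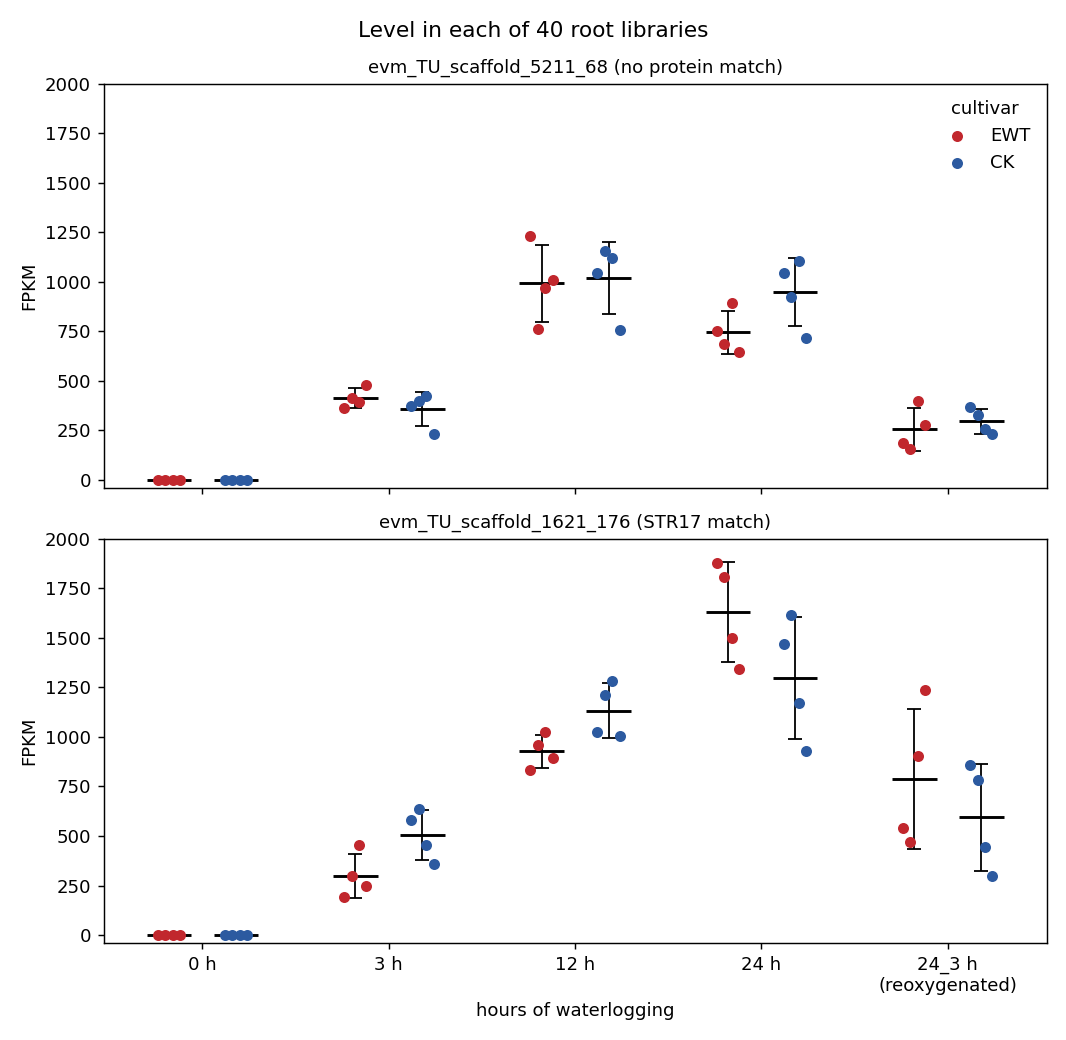
FPKM of evm_TU_scaffold_5211_68 (top) and evm_TU_scaffold_1621_176 (bottom) in each library by hours of waterlogging, with EWT in red and CK in blue. Long bars are group means and error bars are 1 SD of 4 libraries. Both genes sit at 0 in all 8 libraries at 0 h. The top gene is highest at 12 h in both cultivars, and the bottom gene is highest at 24 h in both.

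Because the groups at 0 h held no fragment, the rises were set against the level that 3 fragments over the 4 libraries would give. That limit covers counting error only, and the fold bounds below hold on the FPKM scale alone. With all counted fragments as library size, the bounds at 12 h and 24 h would be lower. For evm_TU_scaffold_5211_68 it was 0.172 FPKM in EWT and 0.246 FPKM in CK. The gene was at least 2403-fold, 5779-fold and 4339-fold higher at 3, 12 and 24 h than at 0 h in EWT, and at least 1449-fold, 4136-fold and 3846-fold higher in CK. For evm_TU_scaffold_1621_176 the limit was 0.146 FPKM in EWT and 0.210 FPKM in CK. It was at least 2042-fold, 6349-fold and 11182-fold higher at 3 h, 12 h and 24 h in EWT, and at least 2416-fold, 5398-fold and 6189-fold higher in CK. After reoxygenation it stood at least 5399-fold above the 0 h limit in EWT and 2835-fold in CK, and evm_TU_scaffold_5211_68 at least 1489.8-fold in EWT and 1199-fold in CK.

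The CK libraries played no part in the choice, so the changes from 0 h in CK were tested. A gene was called when limma gave a p no greater than 0.05 with at least a 2-fold difference, the thresholds of the study's methods. Both genes were called higher at all 4 later times in CK. Of all tested genes, 13.4%, 19.7%, 21.6% and 12.1% were called higher in these comparisons, in order of time. The largest p adjusted by Benjamini-Hochberg over all tested genes was 4.10e-31 for evm_TU_scaffold_5211_68 and 8.49e-29 for evm_TU_scaffold_1621_176. By size of the fitted rise in CK, evm_TU_scaffold_5211_68 ranked 4, 4, 6 and 6 of 89517 genes at the 4 times and evm_TU_scaffold_1621_176 ranked 2, 3, 3 and 4. With a pseudocount of 1 in place of 0.1 the CK ranks lay between 10 and 13 for evm_TU_scaffold_5211_68 and between 6 and 7 for evm_TU_scaffold_1621_176, since a gene at 0 owes the size of its fitted rise to the pseudocount. In EWT, as a description, evm_TU_scaffold_1621_176 had the largest fitted rise of all tested genes at 24 h and at 24_3 h with either pseudocount. At 12 h in EWT, the rise that fixed the choice, evm_TU_scaffold_5211_68 ranked 1 and evm_TU_scaffold_1621_176 ranked 2 with 0.1. With a pseudocount of 1 they ranked 5 and 6, so their place as the largest rises depended on the pseudocount.

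Within the flooded period evm_TU_scaffold_5211_68 had its highest group mean at 12 h in both cultivars. In CK it averaged 357 ± 86.6 FPKM at 3 h, 1018 ± 182 FPKM at 12 h and 947 ± 171 FPKM at 24 h (SD, n = 4 each). The change from 3 h to 12 h in CK was 1.53 ± 0.21 (log2, SE; limma adjusted p = 8.54e-07), with no overlap, and 11.5% of tested genes were called higher in that comparison. The change from 12 h to 24 h was -0.10 ± 0.21 with a 95% confidence interval of -0.53 to 0.32, and the ranges overlapped. Of all tested genes, 14.1% were called in either direction there.

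In EWT evm_TU_scaffold_5211_68 averaged 412 ± 50.2 FPKM at 3 h, 992 ± 192 FPKM at 12 h and 745 ± 109 FPKM at 24 h (SD, n = 4 each). Its level at 24 h was 75.1% of that at 12 h in EWT and 93.0% in CK, the EWT share being a description. Between 3 h and 24 h the change was 0.85 ± 0.21 in EWT (limma adjusted p = 0.00169), a 1.80-fold difference that stayed under the fold threshold although the ranges did not overlap. In CK it was 1.43 ± 0.21 (limma adjusted p = 1.48e-06) and was called. Of all tested genes, 15.8% were called higher between these times in EWT and 15.1% in CK. The difference between the cultivars, -0.58 ± 0.30 with an interval of -1.18 to 0.03, did not pass the test (limma adjusted p = 0.274).

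The STR17-matched gene evm_TU_scaffold_1621_176 had its highest group mean at 24 h in both cultivars. No test was made between the 2 genes. In EWT it averaged 298 ± 113 FPKM at 3 h, 927 ± 83.4 FPKM at 12 h and 1633 ± 252 FPKM at 24 h (SD, n = 4 each). In CK it averaged 506 ± 126, 1131 ± 139 and 1297 ± 307 FPKM at the same times. Its 24 h level was 176.1% of the 12 h level in EWT, as a description, and 115% in CK. The CK change from 3 h to 12 h was 1.19 ± 0.27 (limma adjusted p = 0.000914) and was called, and that from 12 h to 24 h was 0.17 ± 0.27 with an interval of -0.37 to 0.72.

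From 3 h to 24 h evm_TU_scaffold_1621_176 rose by 2.51 ± 0.27 in EWT (limma adjusted p = 3.08e-09) and by 1.36 ± 0.27 in CK (limma adjusted p = 0.000115), both called and without overlap. The EWT rise exceeded the CK rise by 1.15 ± 0.38, with an interval of 0.38 to 1.92. It met the call, as did 17.1% of tested genes in either direction, but failed the correction over all tested genes (limma adjusted p = 0.06005). Without the first EWT library at 3 h, the lowest of its group, the excess was 0.97 and no longer reached 2-fold. Between EWT and CK themselves, the gene differed at 3 h by -0.80 ± 0.27 (limma adjusted p = 0.0165), which was under 2-fold, and the ranges overlapped. Without the third EWT library, the one that overlapped the CK range, the difference was -1.03 and passed both thresholds. Leaving out any other single library did not bring the difference to the call.

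At the end of waterlogging and after reoxygenation the cultivars were not told apart for either gene. At 24 h, EWT minus CK was -0.34 ± 0.21 for evm_TU_scaffold_5211_68, with an interval of -0.77 to 0.09, and 0.35 ± 0.27 for evm_TU_scaffold_1621_176, with an interval of -0.19 to 0.90. At 24_3 h it was -0.28 ± 0.21 with an interval of -0.71 to 0.15, and 0.43 ± 0.27 with an interval of -0.12 to 0.97. At 3 h the difference for evm_TU_scaffold_5211_68 was 0.24 ± 0.21, with an interval of -0.19 to 0.67. None of these met the thresholds and all ranges overlapped, whereas 37.3%, 42.8% and 35.2% of tested genes were called between the cultivars at 3 h, 24 h and 24_3 h. The intervals do not reach 2-fold in either direction.

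After 3 h of reoxygenation both genes were lower than at 24 h in both cultivars, and neither returned to its level at 0 h. The unmatched gene fell to 256 ± 109 FPKM at 24_3 h in EWT, against 745 ± 109 FPKM at 24 h, and to 295 ± 61.9 FPKM in CK, against 947 ± 171 FPKM (SD, n = 4 each). The changes were -1.63 ± 0.21 in EWT (limma adjusted p = 4.73e-07) and -1.69 ± 0.21 in CK (limma adjusted p = 1.55e-07). The level that remained was 34.3% of the 24 h mean in EWT and 31.2% in CK.

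The STR17-matched gene evm_TU_scaffold_1621_176 fell to 788 ± 354 FPKM in EWT, against 1633 ± 252 FPKM at 24 h, and to 594 ± 268 FPKM in CK, against 1297 ± 307 FPKM (SD, n = 4 each). The changes were -1.15 ± 0.27 in EWT (limma adjusted p = 0.00126) and -1.22 ± 0.27 in CK (limma adjusted p = 0.000544), which left 48.3% and 45.8% of the 24 h mean. All 4 falls were called and without overlap in FPKM, while 14.2% of tested genes were called lower in EWT and 16.0% in CK. Leaving out the second reoxygenated EWT library gave -0.94, and leaving out the fourth reoxygenated CK library gave -0.93, both just under 2-fold for this gene. The fall in EWT minus that in CK was 0.06 ± 0.30 for evm_TU_scaffold_5211_68, with an interval of -0.54 to 0.66, and 0.07 ± 0.38 for evm_TU_scaffold_1621_176, with an interval of -0.69 to 0.84. Neither was called, against 15.0% of tested genes in either direction.

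**Figure D2:**
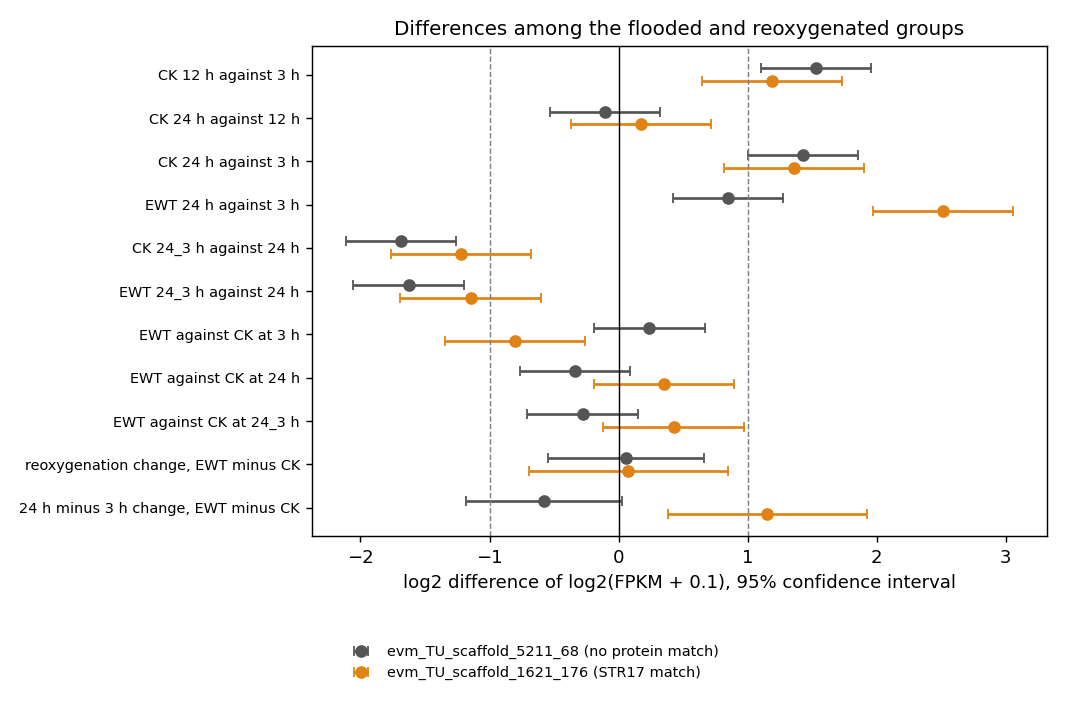
Differences in log2(FPKM + 0.1) with 95% confidence intervals for the tested comparisons among the groups after 0 h, evm_TU_scaffold_5211_68 in grey and evm_TU_scaffold_1621_176 in orange. None of them used the EWT libraries at 12 h, and the CK changes from 0 h are not drawn. Dashed lines mark a 2-fold difference. The intervals of the 2 genes do not overlap for EWT 24 h against 3 h, at 0.85 and 2.51. Nor do they for EWT against CK at 3 h or for the 24 h minus 3 h change, EWT minus CK. Both genes lie below 0 after reoxygenation in each cultivar.

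The library size behind the FPKM bears on these sizes, since it was 0.762 to 1.30 times the number of fragments counted on genes. This ratio followed time. It was 0.762 to 0.9997 in the libraries at 12 h and 24 h. In those at 0 h, 3 h and 24_3 h it was 1.044 to 1.30. Relative to a scaling by all counted fragments, FPKM at 12 h and 24 h were therefore raised against the other times. With all counted fragments as library size, 4 calls of evm_TU_scaffold_1621_176 dropped under 2-fold. Its CK change became 0.76 from 3 h to 12 h and 0.96 from 3 h to 24 h, and its reoxygenation change became -0.68 in EWT and -0.75 in CK. The same scaling moved the median of all tested genes by -0.35 and -0.33 in those CK comparisons, and by 0.38 in EWT and 0.31 in CK on reoxygenation. No call of evm_TU_scaffold_5211_68 changed with it.

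Ordered by group mean, evm_TU_scaffold_5211_68 was highest in CK at 12 h, then EWT at 12 h, CK at 24 h and EWT at 24 h, and each of these groups overlapped the next. A gap separated them from EWT at 3 h, CK at 3 h, CK at 24_3 h and EWT at 24_3 h, which again overlapped in turn. For evm_TU_scaffold_1621_176 the order ran from EWT at 24 h through CK at 24 h, CK at 12 h, EWT at 12 h, EWT at 24_3 h, CK at 24_3 h and CK at 3 h to EWT at 3 h. Each group overlapped its neighbour in that order, and a gap appeared only above the 0 h groups, where both genes stood at 0.

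The balance between the 2 genes spanned a wider range of group means in EWT than in CK. The ratio of evm_TU_scaffold_1621_176 to evm_TU_scaffold_5211_68 in FPKM in EWT was 0.731 ± 0.298 at 3 h and 0.970 ± 0.249 at 12 h (SD, n = 4 each). It was 2.22 ± 0.434 at 24 h and 3.15 ± 0.925 at 24_3 h. In CK it was, over the same times, 1.44 ± 0.249, 1.13 ± 0.153, 1.38 ± 0.286 and 1.93 ± 0.534. The ranges of EWT at 3 h and EWT at 24 h did not overlap, with a highest ratio of 1.16 at 3 h and a lowest of 1.68 at 24 h. The ratio was set up after the values were seen and carries no test. Over the 32 libraries after 0 h the 2 genes had a Pearson r of 0.65 and a Spearman rho of 0.62, as a description of libraries that share their groups. Deviations from the group means correlated at 0.59 over the same 32 libraries, at 0.47 in the 16 EWT and 0.73 in the 16 CK libraries.

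**Figure D3:**
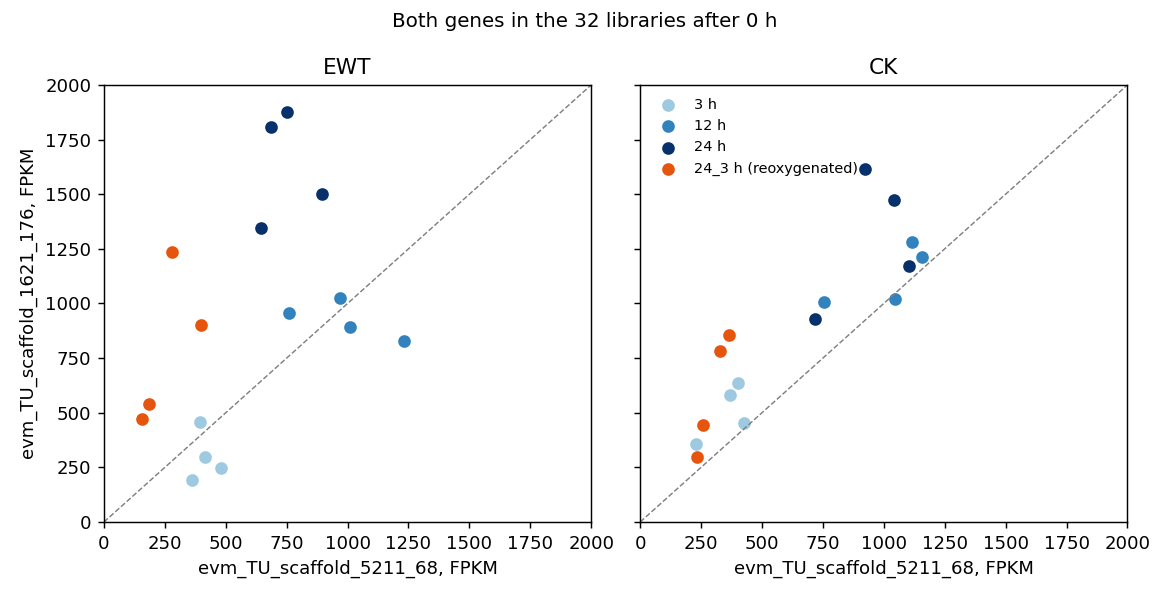
FPKM of evm_TU_scaffold_1621_176 against FPKM of evm_TU_scaffold_5211_68 in the 16 EWT libraries (left) and 16 CK libraries (right) after 0 h, coloured by time. The dashed line marks equal levels. The EWT libraries lie mostly below the line at 3 h and all above it at 24 h and 24_3 h, where the mean ratios are 2.22 and 3.15.

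Silence at 0 h followed by detection in every later library was rare. It was found in 49 genes, all of them tested, of 1826 tested genes without a fragment at 0 h. The choice of the members had favoured genes silent at 0 h and high in flooded EWT roots. A ranking of these genes by mean FPKM over the 40 libraries includes the EWT libraries behind that choice. It therefore partly repeats the choice and is given as a description. By that mean evm_TU_scaffold_1621_176 came first with 717 FPKM and evm_TU_scaffold_5211_68 next with 502 FPKM. Then followed the unmatched gene evm_TU_scaffold_1699_188 with 429 FPKM, and evm_TU_scaffold_18_409 and evm_TU_scaffold_18_408 with 210.5 and 208 FPKM, both matched to class II small heat shock proteins, which keep damaged proteins from clumping. Of the 49 genes, 22 had no protein match, as had 37.8% of all tested genes.

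The gene evm_TU_scaffold_1699_188 averaged 676 ± 47.2 FPKM in EWT and 675 ± 189 FPKM in CK at 24 h, against 431 ± 51.8 and 641 ± 97.2 FPKM at 3 h (SD, n = 4 each). Its change between these times was 0.65 ± 0.16 in EWT (limma adjusted p = 0.00156), under 2-fold, and 0.05 ± 0.16 in CK, with an interval of -0.28 to 0.37. The heat shock match evm_TU_scaffold_18_409 had 405 ± 106 FPKM in EWT and 701 ± 289 FPKM in CK at 12 h, against 10.04 ± 4.02 and 40.2 ± 13.6 FPKM at 3 h. Its neighbour in the gene numbering evm_TU_scaffold_18_408 had 347 ± 78.3 FPKM in EWT and 756 ± 353 FPKM in CK at 12 h, against 9.22 ± 3.84 and 36.7 ± 25.4 FPKM at 3 h.

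The next genes by the rise at 12 h in EWT had other annotations. The gene evm_TU_scaffold_1121_86, with a rise of 13.16, matched STAD6, an Arabidopsis desaturase that puts a double bond into stearic acid, and averaged 1218 ± 97.7 FPKM in EWT and 1696 ± 165 FPKM in CK at 12 h. It was not silent at 0 h, with 0.0531 ± 0.106 FPKM in EWT and 0.676 ± 0.304 FPKM in CK. The gene evm_TU_scaffold_11210_234, with 13.12, and the gene evm_TU_scaffold_243_159, with 12.88, both matched soybean early nodulin-93. The gene evm_TU_scaffold_11210_234 had no fragment in any of the 8 libraries at 0 h. It had 904 ± 163 FPKM in EWT at 12 h and was listed at 0 in every CK library at that time, which neither chosen gene was. The gene evm_TU_scaffold_243_159 had 765 ± 155 FPKM in EWT and 1787 ± 246 FPKM in CK at 12 h, against 0 in all 4 EWT libraries and 0.272 ± 0.543 FPKM in CK at 0 h, where 3 of 4 libraries were at 0.

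A further 3 genes carried the STR17 match, and their levels were far below that of evm_TU_scaffold_1621_176. The gene evm_TU_scaffold_9187_91 on chromosome 9 was also listed at 0 in all 8 libraries at 0 h. It averaged 26.9 ± 10.3, 92.9 ± 35.8, 153 ± 22.3 and 60.2 ± 32.4 FPKM in EWT over the 4 later times, and 1.20 ± 0.854, 5.42 ± 3.46, 7.74 ± 2.82 and 2.66 ± 2.54 FPKM in CK (SD, n = 4 each). The EWT levels were higher by log2 differences of 4.59, 4.37 and 5.02 for the times 3, 24 and 24_3 h, each with an SE of 0.57 (limma adjusted p = 2.97e-08, 5.93e-08 and 6.55e-09). This copy was called between the cultivars at times when evm_TU_scaffold_1621_176 was not, and the difference between the copies was not tested.

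Another STR17 match lay on the minus strand of chromosome 8 from 160841134 to 160842849, under an identifier without the evm prefix of the other gene models. It was listed at 0 at 0 h as well. It averaged 15.2 ± 4.40 FPKM in EWT and 46.6 ± 20.9 FPKM in CK at 24 h, and 7.05 ± 1.26 and 17.1 ± 7.31 FPKM at 24_3 h. EWT was lower by log2 differences of -1.48 ± 0.44 and -1.19 ± 0.44 (limma adjusted p = 0.00562 and 0.0318). At 3 h the difference was -0.12 ± 0.44 with an interval of -1.01 to 0.76.

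The fourth STR17 match, evm_TU_scaffold_9187_95 on chromosome 9, ran the other way. It was listed at 0 in every library at 12 h and 24 h, against 1.71 ± 1.13 FPKM in EWT and 2.64 ± 0.711 FPKM in CK at 0 h. In CK it was called lower at each later time (limma adjusted p = 1.49e-09 at 3 h). Both copies that rose were called lower on reoxygenation in each cultivar, by -1.48 ± 0.57 in EWT and -2.13 ± 0.57 in CK for evm_TU_scaffold_9187_91 and by -1.07 ± 0.44 and -1.36 ± 0.44 for the gene on chromosome 8. The limma adjusted p of the chromosome 8 gene in EWT was 0.0603. Whether reads of these copies could be shared among them was not tested, so the split between copies is uncertain.

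**Figure D4:**
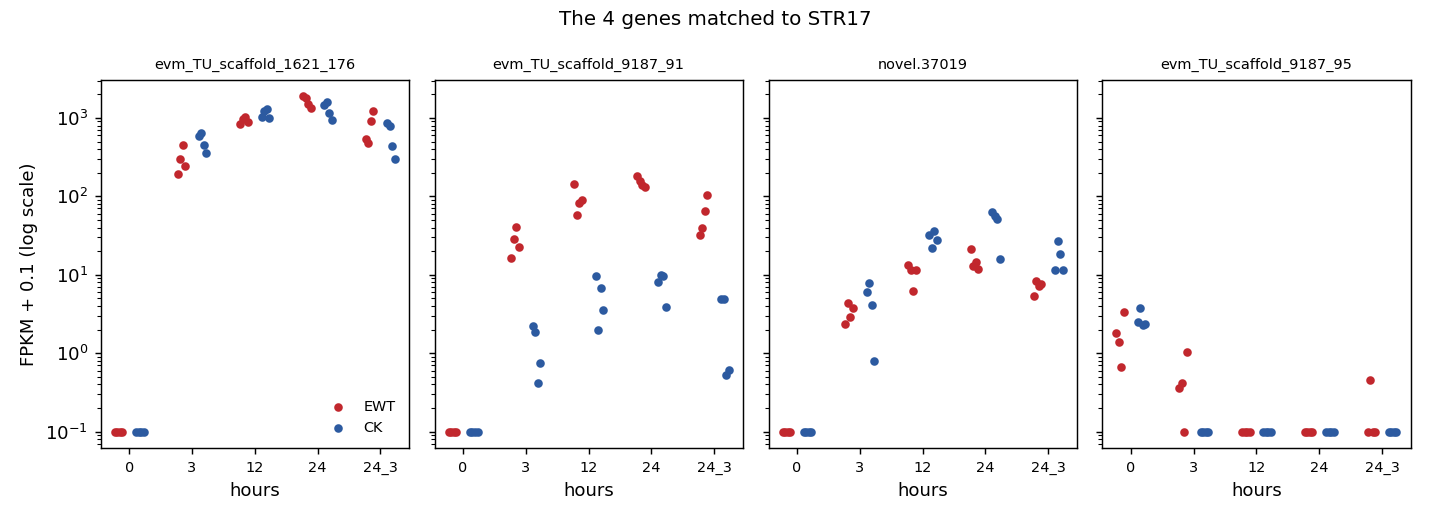
FPKM + 0.1 on a log scale of the 4 genes with an STR17 match in every library, with EWT in red left of CK in blue at each time. A value of 0 sits at 0.1. The first 3 genes are at 0 in all 8 libraries at 0 h and above it later, evm_TU_scaffold_9187_91 is higher in EWT, and evm_TU_scaffold_9187_95 is above 0 at 0 h and at or near 0 afterwards.

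The family of evm_TU_scaffold_1621_176 was counted without it. In all, 60 genes carried a rhodanese or sulfurtransferase annotation and 38 were tested. At 24 h against 0 h, 8 of the 38 were called higher in EWT and 18 lower, and 7 higher and 18 lower in CK. Of all tested genes, 20.6% were called higher and 28.4% lower in EWT, and 21.6% higher and 30.1% lower in CK, so the share of the family called higher was near that of all genes. The median change was -1.08 in EWT and -1.06 in CK, against -0.16 and -0.15 over all tested genes. On reoxygenation 10 were called higher and 8 lower in EWT, and 9 higher and 4 lower in CK, against 16.8% higher and 14.2% lower of all tested genes in EWT and 17.0% and 16.0% in CK. These counts depended on the setting. With a pseudocount of 1, EWT had 2 family genes called higher and 5 lower, while CK had 4 each way. Library sizes from all fragments gave EWT 14 higher and 4 lower, and CK 13 higher and 2 lower. That scaling also raised the median over all tested genes, to 0.438 for EWT and 0.305 for CK. The family medians under it were 0.588 and 0.462. Shares of all tested genes called are not given for these settings. Whether the swing was particular to the family was not tested.

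The family members with the highest mean level after evm_TU_scaffold_1621_176 were evm_TU_scaffold_240_145 and evm_TU_scaffold_360_299, then evm_TU_scaffold_9187_91. The first pair matched STR15, a chloroplast rhodanese of Arabidopsis. At 12 h evm_TU_scaffold_240_145 averaged 278 ± 27.0 FPKM in EWT and 30.1 ± 18.0 FPKM in CK, and evm_TU_scaffold_360_299 averaged 166 ± 5.49 and 67.8 ± 40.5 FPKM. At 24 h they averaged 79.8 ± 46.3 and 49.8 ± 20.4 FPKM in EWT, against 14.1 ± 2.74 and 28.6 ± 1.73 FPKM in CK, below their 12 h means in each cultivar. The STR17-matched gene had its highest mean at 24 h in both.

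Genes known to answer low oxygen were counted beside the 2 genes. The list held 135 genes matched to pyruvate decarboxylase, which opens ethanol fermentation, plant cysteine oxidases, which sense oxygen, non-symbiotic hemoglobins, which bind oxygen and remove nitric oxide, sucrose synthase, which splits sucrose, and LOB domain-containing protein 41. Of the 90 tested, 52 were called higher and 14 lower at 24 h against 0 h in EWT, and 50 higher and 15 lower in CK. Of all tested genes, 20.6% were called higher and 28.4% lower in EWT, and 21.6% and 30.1% in CK. The list's medians were 2.97 in EWT and 2.23 in CK, against -0.16 and -0.15 over all tested genes. On reoxygenation 3 were called higher and 23 lower in EWT, and 5 higher and 28 lower in CK, where 14.2% and 16.0% of all tested genes were called lower in EWT and in CK, with list medians of -0.51 and -0.74 against 0.06 and 0.00 over all tested genes. With library sizes from all counted fragments 5 were called higher and 7 lower in EWT, and 10 higher and 14 lower in CK. The calls were then nearly balanced, but that scaling moved all genes. The list medians were -0.061 in EWT and -0.309 in CK, still below the 0.438 and 0.305 over all tested genes. With the FPKM as deposited, evm_TU_scaffold_5211_68 changed by -1.63 in EWT and -1.69 in CK and evm_TU_scaffold_1621_176 by -1.15 and -1.22. The medians in EWT and CK were -0.97 and -1.09 for the hemoglobins and -0.78 and -1.01 for the LOB domain-containing protein 41 genes. They were -0.71 and -0.79 for pyruvate decarboxylase, -0.20 and -0.32 for plant cysteine oxidase, and -0.23 and 0 for sucrose synthase.

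Within the list, 21 of 26 tested pyruvate decarboxylase genes were called higher at 24 h in EWT and 18 in CK, and 7 of 10 hemoglobin genes in each cultivar, against 20.6% of all tested genes in EWT and 21.6% in CK. Of 13 plant cysteine oxidase genes 7 were called higher in each cultivar, with medians of 1.06 in EWT and 2.29 in CK. All 6 tested genes matched to LOB domain-containing protein 41 were called higher in each. Of 35 sucrose synthase genes 11 were called higher and 10 lower in EWT, and 12 higher and 14 lower in CK, so this group did not rise together.

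By likeness over the 32 libraries after 0 h, measured as Pearson r of log2(FPKM + 0.1), the nearest genes to evm_TU_scaffold_5211_68 were also unmatched. They were evm_TU_scaffold_367_196 with r = 0.969, evm_TU_scaffold_297_89 and evm_TU_scaffold_831_123 with 0.965 each, evm_TU_scaffold_8801_283 with 0.962 and evm_TU_scaffold_943_55 with 0.959. The only domain among them was a universal stress protein domain in evm_TU_scaffold_831_123, a gene of far higher level, with 6647 ± 618 FPKM in EWT and 5724 ± 932 FPKM in CK at 12 h (SD, n = 4 each). At 0 h that gene was at 221 ± 29.4 and 232 ± 27.0 FPKM, so it did not start from silence.

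Of these 5 genes only evm_TU_scaffold_8801_283 was near 0 before flooding, with 319 ± 63.5 FPKM in EWT and 306 ± 46.8 FPKM in CK at 12 h, against 0.397 ± 0.369 and 0.265 ± 0.245 FPKM at 0 h. At 12 h evm_TU_scaffold_943_55 had 2029 ± 204 FPKM in EWT and 1652 ± 334 FPKM in CK. Lower levels were reached by evm_TU_scaffold_297_89, with 823 ± 142 and 767 ± 168 FPKM, and by evm_TU_scaffold_367_196, with 235 ± 21.7 and 209 ± 37.2 FPKM.

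The genes nearest to evm_TU_scaffold_1621_176 had different annotations. They were evm_TU_scaffold_1747_36 with r = 0.945, matched to a pentatricopeptide repeat protein, evm_TU_scaffold_598_163 with 0.926, matched to a dioxygenase of the methionine salvage cycle in grape, and an unmatched gene without the evm prefix with 0.924. Then came evm_TU_scaffold_93_75 with 0.921, which has an interferon-related developmental regulator domain, and evm_TU_scaffold_777_59 with 0.920, matched to the cytoplasmic proline-tRNA ligase, which loads proline for protein synthesis. All but the dioxygenase match were low genes, at 3.12 to 26.5 FPKM on average at 24 h in EWT.

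The dioxygenase match evm_TU_scaffold_598_163 averaged 93.5 ± 10.7, 373 ± 68.4, 548 ± 81.5 and 204 ± 54.7 FPKM in EWT over the 4 later times, and 179 ± 42.5, 373 ± 42.2, 489 ± 89.4 and 182 ± 38.0 FPKM in CK. It was expressed at 0 h, with 39.7 ± 7.10 and 14.2 ± 2.82 FPKM. Its EWT rise from 3 h to 24 h exceeded that of CK by 1.08 ± 0.28. That value is a description, since the gene was picked by likeness over libraries that include these groups. The 2 chosen genes were not each other's nearest. At r = 0.65, evm_TU_scaffold_1621_176 ranked 4760 by likeness to evm_TU_scaffold_5211_68. The nearest genes also depended on leaving out the 0 h libraries. Over all 40 libraries the 5 named for evm_TU_scaffold_5211_68 ranked between 16 and 782, and the 5 named for evm_TU_scaffold_1621_176 between 374 and 13480.

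**Figure D5:**
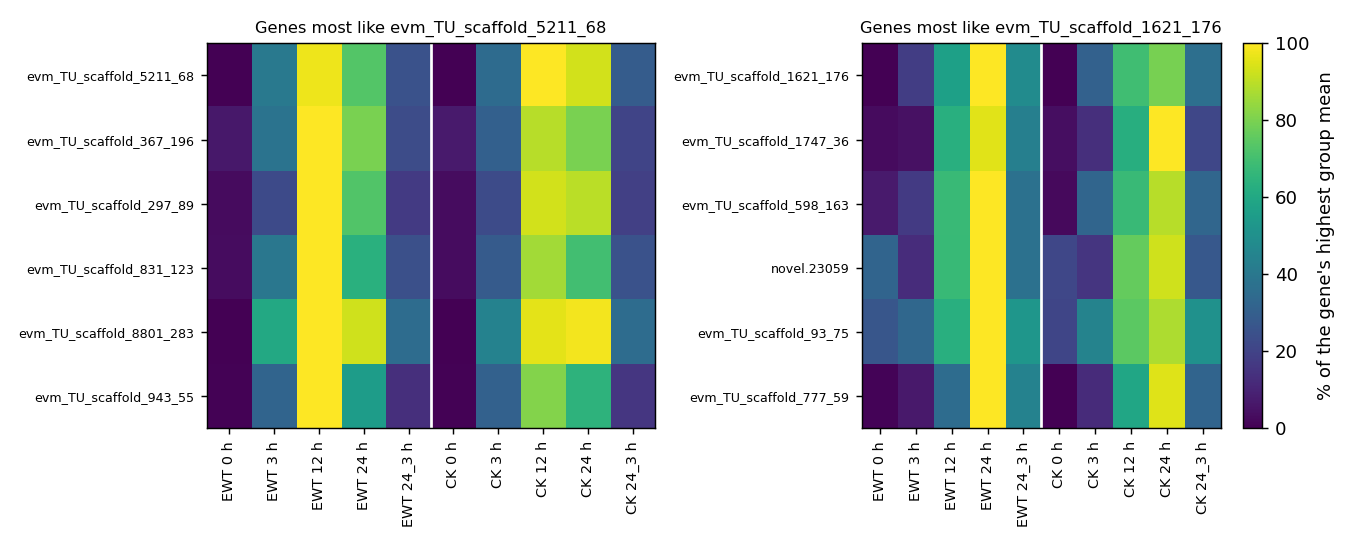
Group means of each chosen gene and of the 5 genes most like it, as a percent of the gene's own highest group mean, with EWT left of the white line and CK right of it. The genes on the left are highest at 12 h or, for one of them in CK, at 24 h. Those on the right are highest at 24 h in both cultivars.

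The nearest genes on the chromosome differed in level and course. A gene without the evm prefix and without a protein match lay 20452 bases from evm_TU_scaffold_5211_68 on the other strand. It was listed at 0 in all 4 CK libraries and had 0.0312 ± 0.0625 FPKM in EWT at 0 h. Over the 4 later times it averaged 144 ± 20.8, 242 ± 52.7, 188 ± 18.2 and 94.4 ± 30.7 FPKM in EWT, and 236 ± 52.1, 735 ± 97.4, 814 ± 129 and 238 ± 73.1 FPKM in CK (SD, n = 4 each). Unlike evm_TU_scaffold_5211_68, it was lower in EWT at 24 h by a log2 difference of -2.11 ± 0.24 (limma adjusted p = 3.56e-09) and at 24_3 h by -1.34 ± 0.24 (limma adjusted p = 2.84e-05).

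On the same side evm_TU_scaffold_5211_66, 16819 bases away and matched to cellulose synthase-like protein E1, averaged 18.2 ± 3.00 FPKM in EWT and 19.6 ± 8.03 FPKM in CK at 24 h, and fell on reoxygenation by log2 changes of -1.75 ± 0.36 in EWT (limma adjusted p = 0.000312) and -2.07 ± 0.36 in CK (limma adjusted p = 2.90e-05). On the other side evm_TU_scaffold_5211_70, with a transposase domain, did not pass 8.42 FPKM in any library, and the unmatched gene 32456 bases away did not pass 4.67 FPKM.

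Beside evm_TU_scaffold_1621_176, at 16743 bases, lay evm_TU_scaffold_1621_175, matched to an Arabidopsis enzyme that methylates calmodulin. It averaged 3.76 ± 0.756 FPKM in EWT and 10.6 ± 2.36 FPKM in CK at 3 h, a log2 difference of -1.47 ± 0.30 (limma adjusted p = 0.000174), and 8.58 ± 1.23 and 8.64 ± 2.38 FPKM at 24 h. Its change from 3 h to 24 h was higher in EWT than in CK by 1.49 ± 0.43 (limma adjusted p = 0.0293). The thaumatin-like evm_TU_scaffold_1621_173 reached at most 41.7 FPKM and the unmatched gene 34073 bases away at most 2.51 FPKM, and evm_TU_scaffold_1621_180, matched to replication protein A, was listed at 0 throughout.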

How the data were processed

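Poly-A RNA of roots was sequenced in 40 libraries, 4 for each of 10 groups. Per the submitters' processing notes, fastp, HISAT2 2.0.5 and featureCounts 1.5.0-p3 were used. No source used here gives the build of the genome. The authors deposited FPKM per gene, and compared groups with DESeq2 in their own analysis. FPKM times gene length gave whole fragments, within 0.01 of a fragment, for 100% of non-zero values. The library size behind the FPKM was not the sum of those fragments, so both scalings were used.

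Genes reaching 1 FPKM in 4 or more libraries (89517) entered limma 3.58.1 in R 4.3.3 (lmFit, contrasts.fit, eBayes with trend) on log2(FPKM + 0.1), fitting 1 mean per group and all 40 libraries. Changes are on that scale, which understates the change of low genes. Calls required p no greater than 0.05 with at least a 2-fold difference, and adjusted p-values are Benjamini-Hochberg values over all tested genes. Results and plots used Python 3.11.15, pandas 2.3.3, numpy 2.4.6, matplotlib 3.10.9 and the R package data.table, version 1.17.8. Intervals are at 95% and, where nothing says that libraries came from separate plants, p-values measure the spread between libraries only.

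The members and lists were chosen with earlier results of these data known. Beside the 2 members, the genes named were the 5 most like each by Pearson r, the 3 next by rise at 12 h in EWT, all STR17 matches, the 3 highest rhodanese genes, the 2 nearest genes on each side, and the 5 highest of those silent only at 0 h. Lists were found by words in the annotation. Alternatives were pseudocounts of 1 and 0.01, no filter, library sizes from all fragments, a replicate block, only the groups compared, vooma weights, and each replicate left out in turn. Sequences of the members were not used here.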

Additional observations from a re-analysis of the deposited data

Results flagged for a closer look

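The change of evm_TU_scaffold_1621_176 from 3 h to 24 h of waterlogging differed between the cultivars by the test of the difference itself, with an EWT change that exceeded the CK change by 1.15 ± 0.38 on the log2 scale (95% interval 0.38 to 1.92, limma adjusted p = 0.06005 over 89517 genes). In EWT the 4 libraries had 1876, 1809, 1501 and 1344 FPKM at 24 h, against 195, 297, 456 and 245 FPKM at 3 h. In CK they had 1471, 1616, 1171 and 930.0 FPKM at 24 h, against 581, 635, 453 and 357 FPKM at 3 h. The difference fails the correction over all tested genes. Dixon's ratio flagged no library of either gene as apart from its group of 4, with a highest value of 0.722 for evm_TU_scaffold_5211_68 in CK at 12 h. A group of 4 gives this ratio little power, so a library that stands apart can be missed.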

How the results depend on the processing

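Of the tested changes of the 2 genes, none changed its call with a pseudocount of 1 or 0.01, with no filter, with vooma weights or with only the compared groups in the fit. With library sizes from all fragments 4 calls of evm_TU_scaffold_1621_176 were lost, at 0.76 for CK 12 h against 3 h, 0.96 for CK 24 h against 3 h, -0.75 for CK 24_3 h against 24 h and -0.68 for EWT 24_3 h against 24 h. Leaving out 1 library at a time turned the sign of changes that were not called: CK 24 h against 12 h of evm_TU_scaffold_5211_68 ran from -0.24 to 0.023, and EWT minus CK on reoxygenation from -0.19 to 0.26 for evm_TU_scaffold_5211_68 and from -0.22 to 0.29 for evm_TU_scaffold_1621_176. For evm_TU_scaffold_1621_176 the range was -1.44 to -0.93 for CK 24_3 h against 24 h, -1.40 to -0.94 for EWT 24_3 h against 24 h, -1.03 to -0.62 for EWT against CK at 3 h, and 0.97 to 1.38 for EWT minus CK in the change from 3 h to 24 h, each crossing 2-fold at 1 end.

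Over all tested genes, libraries with the same replicate number did not deviate together, so no pairing by these numbers was detected. In every comparison 0 of 4 pairs passed 0.1, with correlations of -0.07 to 0.08. CK replicate 4 was nevertheless the lowest of its group at each of the 4 later times for both genes. A fit with a replicate block changed no call, and gave the EWT minus CK difference of evm_TU_scaffold_1621_176 as 1.15.

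The likeness of the 2 genes was 0.65, and 0.45 with library sizes from all fragments, 0.665 over 8 group means and 0.99 once the libraries at 0 h, where both are at 0, were added. Depth limits the 0 h levels to at most 0.246 FPKM per group, and the cause of the shifts was not tested.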
